A study of Bos taurus with 8 samples.

Results

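The cathepsin genes CTSA, CTSB, CTSC, CTSD, CTSH, CTSK, CTSL, CTSS, CTSV and CTSZ were followed in bovine conceptuses at day 15. They were chosen by gene name from the deposited table, which holds 10 of these 10 names among its 15267 genes. RNA had been sequenced from stranded poly-A libraries of 8 samples, each described in the labels as 1 portion of a filamentous conceptus from in vitro embryo development. To 4 samples, called FLI 20, FLI 3M, FLI 4M and FLI 50 after their titles, 3 factors had been added: IGF1, an insulin-like growth factor, the cytokine LIF, and FGF2, a fibroblast growth factor. The 4 controls are called 10, 20, 3M and 4M. The title of the study concerns slow-rate freezing of embryos, and the labels give neither which samples were frozen nor the doses and timing of the factors. Nothing in the labels says that the samples of a group came from separate animals, so the p-values measure the spread between these samples, which may be technical in part.

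Cathepsins are proteases that work mainly in lysosomes, the acidic compartments in which a cell degrades proteins taken up from outside or delivered from within. CTSB, CTSC, CTSH, CTSK, CTSL, CTSS, CTSV and CTSZ are papain-like cysteine proteases, CTSD is an aspartic protease, and CTSA is a serine carboxypeptidase. They are made as inactive precursors, tagged with mannose 6-phosphate, sorted to the lysosome and activated at acid pH. The cysteine proteases among them are held in check by cystatins. Before implantation the trophoblast and the yolk sac endoderm take up large amounts of protein from the uterine fluid, and in sheep cathepsins have been described in both the uterus and the trophoblast.

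No cathepsin passed the test between FLI and control. CTSL and CTSB had means more than 2 times as high in FLI (679 against 299.8 CPM for CTSL and 716 against 326 CPM for CTSB), and CTSV, the close relative of CTSL, had 144 CPM in FLI against 312 CPM in control. FLI 20 and control 10 stood at opposite ends for CTSL, and without these 2 libraries the log2 differences were 0.24 for CTSL, 0.19 for CTSB and -0.27 for CTSV. The 2 libraries were picked after the data had been seen. They were the extremes of CTSL and CTSB, so leaving them out could only make these differences smaller. CTSH, an aminopeptidase, was lower in 3 of 4 FLI samples than in every control. In every member the values of the groups overlapped, and the remaining members had smaller or less even differences.

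Values are CPM, reads of a gene scaled to a common library total with the authors' TMM factors (which make the bulk of the genes comparable between libraries). The libraries held 108851495 to 152570016 reads assigned to genes. Between 38 and 187058 reads stood behind a single value of a member, the smallest for CTSS and the largest for CTSB. Differences are FLI minus control on a scale of log2(CPM + 0.5) and were tested with limma over the 11897 genes that had at least 1 CPM in at least 4 samples. CTSS did not reach this minimum, so 9 of 10 members were tested. P-values were adjusted by the Benjamini-Hochberg method over every tested gene, and 0.05 was the threshold. All 19 listed trophoblast genes were detected in every library, with a summed level of 34852 to 83253 CPM in FLI and 27843 to 58189 CPM in control.

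Of the 9 tested members, 0 were called at the adjusted threshold by limma, as were 0% of all 11897 genes. At an unadjusted p under 0.05 limma found 0 of the 9 members, against 2.84% of all tested genes (1.89% higher and 0.95% lower in FLI). edgeR's quasi-likelihood test, its likelihood ratio test and DESeq2 also called 0 members at the adjusted threshold. Of all genes these called 0% by quasi-likelihood, 0.0393% by likelihood ratio without weights, 0.216% with robust weights and 0.0971% by DESeq2. At an unadjusted p under 0.05 the likelihood ratio test without weights found 2 members, CTSB and CTSV, and 810 of all 15267 genes. With robust weights it found 1 member, CTSH, and 804 of all genes. DESeq2 found 2 members, CTSB and CTSV, and 915 of all genes. The mean log2 level was higher in FLI for 6 of 9 members and lower for 3 of 9, where 50.8% of all tested genes were higher and 49.2% lower. The median difference of the members was 0.13 on the log2 scale, and that of all tested genes was 0.0045. In 0 of 9 members were the groups free of overlap, which was the case for 1.45% of all tested genes (0.841% higher and 0.605% lower in FLI).

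CTSL (ENSBTAG00000000720, chromosome 8, 80974612 to 80980412 of ARS-UCD1.2, plus strand) encodes cathepsin L, an endopeptidase that cuts proteins within the chain. CTSL stood at 1505, 454, 473 and 285 CPM in FLI 20, 3M, 4M and 50, against 31.9, 162, 663 and 342 CPM in control 10, 20, 3M and 4M. FLI 20 was the highest sample and control 10 the lowest, while control 3M lay above the other FLI samples, so the groups overlapped. The mean was 679 ± 557 CPM in FLI and 299.8 ± 274 CPM in control (SD, n = 4 each). The difference was 1.57 on the log2 scale (SE 0.90, 95% confidence interval -0.49 to 3.62), with a limma adjusted p of 0.97. Its highest sample was 47.1 times its lowest, and the SD of its log2 level over the 8 samples was larger than that of 99.1% of the tested genes. Leaving out FLI 20 gave a difference of 1.08, leaving out control 10 gave 0.73, and leaving out control 3M gave 2.18. Leaving out both FLI 20 and control 10, its highest and lowest samples, gave 0.24.

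CTSV (ENSBTAG00000017077, chromosome 8, 83553382 to 83558696, minus strand) lies 2.57 Mb from CTSL and encodes a cathepsin of the same subfamily. CTSV had 125, 122, 132 and 198 CPM in FLI 20, 3M, 4M and 50, against 698, 231, 194 and 124 CPM in control 10, 20, 3M and 4M. Control 10 was by far the highest sample, and control 4M lay among the lower FLI samples. The mean was 144 ± 36.2 CPM in FLI and 312 ± 261 CPM in control (SD, n = 4 each), a log2 difference of -0.82 (SE 0.47, 95% confidence interval -1.90 to 0.26, limma adjusted p = 0.97). Without control 10 it was -0.33. In the RefSeq symbol table for ARS-UCD2.0 CTSV has CTSL among its synonyms, while CTSL does not have CTSV. How the counting treated reads that match both genes is not given in the sources used here, so the split of reads between them is uncertain. Their summed level was 1629, 576, 605 and 483 CPM in FLI 20, 3M, 4M and 50, against 730, 393, 857 and 466 CPM in control 10, 20, 3M and 4M. The sum therefore varied far less than CTSL alone, and its groups overlapped too.

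CTSB (ENSBTAG00000012442, chromosome 8, 7566095 to 7586862, plus strand) encodes cathepsin B, which can cut within a chain and also trims dipeptides from its end. CTSB reached 1634, 405, 435 and 389 CPM in FLI 20, 3M, 4M and 50, against 212, 290.0, 449 and 354 CPM in control 10, 20, 3M and 4M. FLI 20 exceeded every other sample by more than 3 times, the other 3 FLI samples lay close together, and control 3M lay above all 3 of them. The mean was 716 ± 613 CPM in FLI and 326 ± 100.2 CPM in control (SD, n = 4 each). The log2 difference was 0.88 (SE 0.47, 95% confidence interval -0.20 to 1.96, limma adjusted p = 0.97), and 0.38 without FLI 20.

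CTSD (ENSBTAG00000007622, chromosome 29, 49712700 to 49722179, plus strand) encodes cathepsin D, the main aspartic protease of lysosomes. CTSD stood at 256, 170.1, 232 and 208 CPM in FLI 20, 3M, 4M and 50, against 176, 165, 277 and 182 CPM in control 10, 20, 3M and 4M. Its samples were the most even among the abundant members, with the highest value in control 3M and the lowest in control 20. The means were 217 ± 36.6 CPM in FLI and 200.1 ± 51.5 CPM in control (SD, n = 4 each), a log2 difference of 0.13 (SE 0.20, 95% confidence interval -0.32 to 0.58, limma adjusted p = 0.97).

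**Figure D1:**
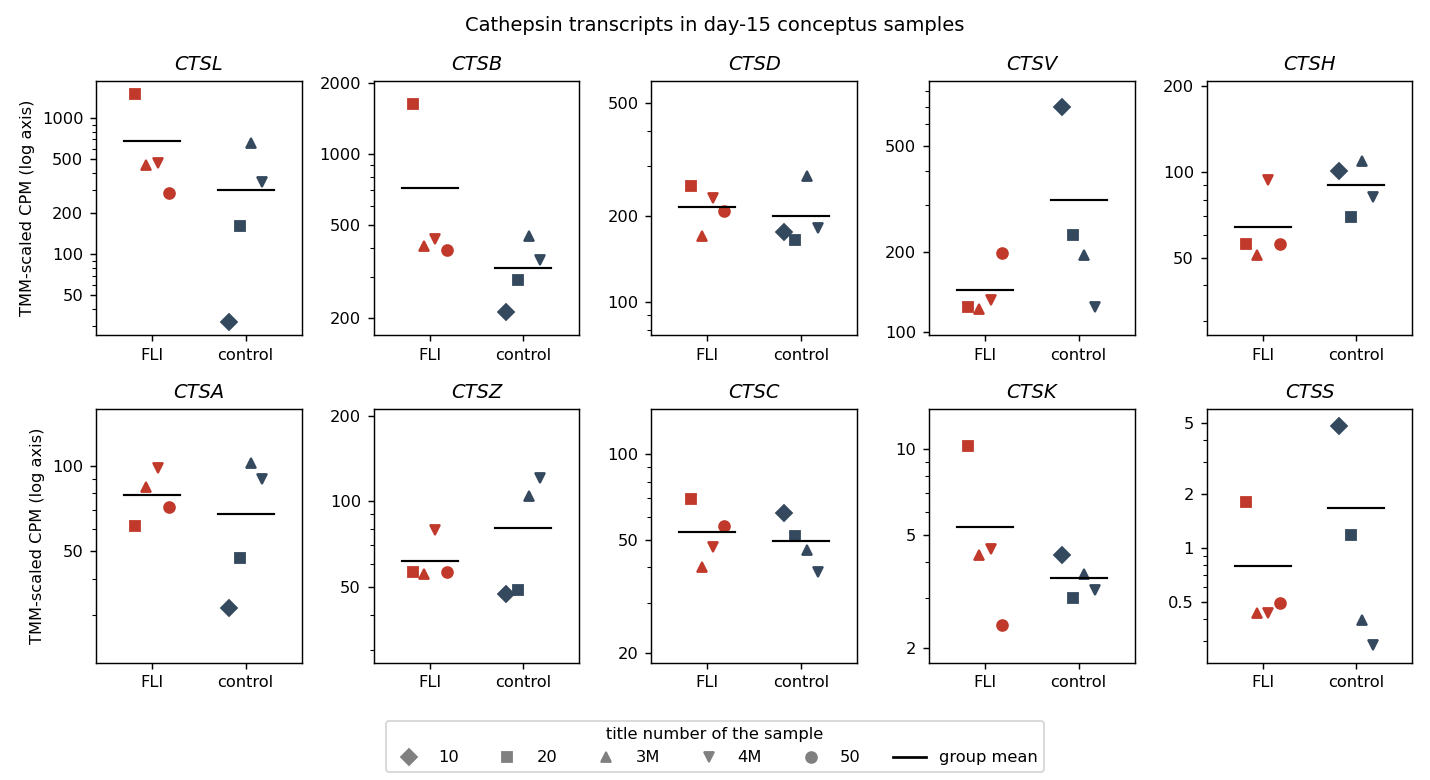
Level of each cathepsin gene in CPM on a log axis, with 1 point per sample and 1 panel per gene, FLI samples left of control samples, and a bar at each group's mean. FLI 20 is the highest sample for CTSL (1505 CPM) and CTSB (1634 CPM), control 10 is the highest for CTSV (698 CPM) and the lowest for CTSL (31.9 CPM), and in every panel the groups overlap.

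The exopeptidases, which remove residues from the ends of proteins, are CTSH, CTSC, CTSZ and CTSA. CTSH (ENSBTAG00000010992, chromosome 21, 25201460 to 25222224, minus strand) encodes cathepsin H, mainly an aminopeptidase. CTSH had 55.8, 51.0, 93.5 and 56.0 CPM in FLI 20, 3M, 4M and 50, against 101, 69.5, 109.5 and 81.6 CPM in control 10, 20, 3M and 4M. FLI 20, 3M and 50 lay below all controls, while FLI 4M lay inside the control range. The mean was 64.1 ± 19.8 CPM in FLI and 90.3 ± 18.1 CPM in control (SD, n = 4 each). The log2 difference was -0.51 (SE 0.23, 95% confidence interval -1.03 to 0.00095), with an unadjusted limma p of 0.0503 and an adjusted p of 0.97. This was the smallest unadjusted p of the 9 members. In the authors' deposited table CTSH has a log2 fold change of -0.58 with a p of 0.0186 and an adjusted p of 0.667, where 5.29% of all genes have a p under 0.05 and 2.74% have it with a lower level in FLI. Leaving out 1 sample at a time gave log2 differences from -0.71 without FLI 4M (limma adjusted p = 0.923) to -0.41 without control 3M (limma adjusted p = 0.723).

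CTSC (ENSBTAG00000011100, chromosome 29, 7375472 to 7417234, plus strand) encodes dipeptidyl peptidase I, which removes dipeptides from the start of proteins and activates serine proteases of immune cells. CTSC stood at 69.5, 40.2, 47.1 and 56.1 CPM in FLI 20, 3M, 4M and 50, against 62.0, 51.4, 46.2 and 38.4 CPM in control 10, 20, 3M and 4M. The samples of both groups were spread over nearly the same range. The means were 53.2 ± 12.7 CPM in FLI and 49.5 ± 9.88 CPM in control (SD, n = 4 each), a log2 difference of 0.10 (SE 0.21, 95% confidence interval -0.38 to 0.57, limma adjusted p = 0.973). At the read totals alone, without TMM factors, it was -0.0045, where the median of all genes was -0.09, and relative to that median it was 0.09 under both scalings.

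CTSZ (ENSBTAG00000018784, chromosome 13, 57379569 to 57390707, plus strand) encodes cathepsin Z, a carboxypeptidase. CTSZ had 56.3, 55.3, 79.6 and 56.3 CPM in FLI 20, 3M, 4M and 50, against 47.4, 48.9, 105 and 121 CPM in control 10, 20, 3M and 4M. All FLI samples lay between the lower pair of controls, 10 and 20, and the higher pair, 3M and 4M. The means were 61.9 ± 11.8 CPM in FLI and 80.5 ± 37.9 CPM in control (SD, n = 4 each), a log2 difference of -0.27 (SE 0.33, 95% confidence interval -1.01 to 0.48, limma adjusted p = 0.97).

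CTSA (ENSBTAG00000027337, chromosome 13, 74649200 to 74655766, plus strand) encodes the protective protein, a carboxypeptidase that also holds beta-galactosidase and neuraminidase in a stable complex. CTSA stood at 61.5, 84.3, 98.0 and 71.6 CPM in FLI 20, 3M, 4M and 50, against 31.7, 47.5, 102 and 90.1 CPM in control 10, 20, 3M and 4M. As with CTSZ, the FLI samples lay between the controls 10 and 20 on the low side and control 3M on the high side. The CTSA means were 78.9 ± 15.8 CPM in FLI and 67.8 ± 33.5 CPM in control (SD, n = 4 each), a log2 difference of 0.35 (SE 0.36, 95% confidence interval -0.48 to 1.17, limma adjusted p = 0.97). Of its exon bases 29.9% overlap PLTP on the opposite strand, which had a mean of 0.551 CPM. The strand setting of the counting is not given in the sources used here, and without it reads of overlapping genes cannot be told apart.

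CTSK and CTSS are neighbours on chromosome 3, 15.4 kb apart, and both were low. CTSK (ENSBTAG00000021035, 19953196 to 19966177, plus strand) encodes cathepsin K, the collagen-degrading protease known from osteoclasts. CTSK had 10.2, 4.22, 4.44 and 2.41 CPM in FLI 20, 3M, 4M and 50, against 4.25, 2.99, 3.65 and 3.18 CPM in control 10, 20, 3M and 4M. FLI 20 was the highest sample and FLI 50 the lowest. The means were 5.32 ± 3.38 CPM in FLI and 3.52 ± 0.565 CPM in control (SD, n = 4 each), a log2 difference of 0.38 (SE 0.37, 95% confidence interval -0.46 to 1.22, limma adjusted p = 0.97), and 0.03 without FLI 20.

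CTSS (ENSBTAG00000017135, 19981529 to 20004455, plus strand) encodes cathepsin S, known from antigen-presenting cells, where it trims the invariant chain of MHC class II. CTSS stood at 1.81, 0.432, 0.433 and 0.494 CPM in FLI 20, 3M, 4M and 50, against 4.79, 1.18, 0.395 and 0.284 CPM in control 10, 20, 3M and 4M. The highest values were in control 10 and FLI 20, and the lowest in control 4M and control 3M. Its means of 0.792 ± 0.679 CPM in FLI and 1.66 ± 2.12 CPM in control (SD, n = 4 each) differ by -0.41 on the log2 scale, with a limma adjusted p of 0.954 when no minimum level was applied.

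**Figure D2:**
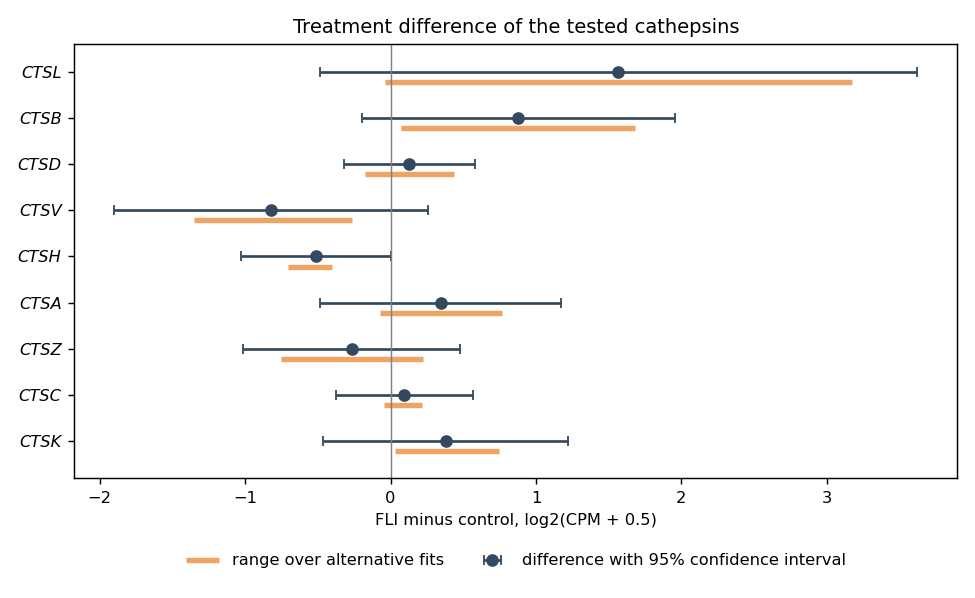
Difference of the 9 tested cathepsins, FLI minus control on log2(CPM + 0.5), as points with 95% confidence intervals, and below each an orange line for the range over 22 alternative fits. All 9 intervals include 0, that of CTSL is the widest (-0.49 to 3.62), and the lines of CTSA, CTSC, CTSD, CTSL and CTSZ cross 0.

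Levels of different genes were compared per kilobase of exon, since a longer transcript gives more reads. On this scale CTSL had a mean of 269.5 CPM per kb over the 8 samples and CTSB 258. They were followed by CTSD (102 CPM per kb), CTSV (100.1), CTSH (53.6), CTSA (40.1), CTSZ (33.5), CTSC (15.3), CTSK (2.43) and CTSS (0.729). Of the neighbouring genes in this order, CTSB exceeded CTSD, CTSZ exceeded CTSC and CTSC exceeded CTSK in 8 of 8 samples. CTSL exceeded CTSB in 5 of 8 samples, CTSK exceeded CTSS in 7 of 8, and the other 4 neighbouring pairs held their order in 6 of 8. The order of every pair that held in fewer than 8 samples, CTSL and CTSB among them, is therefore not fixed across these samples.

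The make-up of the family differed between libraries more than its total did. The 10 members summed to 3775, 1386, 1595 and 1323 CPM in FLI 20, 3M, 4M and 50, against 1369, 1070, 1949 and 1337 CPM in control 10, 20, 3M and 4M. Apart from FLI 20 the FLI sums lay inside the wider range of the control sums. Of the family's level per kilobase, CTSL took 42.6%, 35.2%, 31.7% and 23.7% in FLI 20, 3M, 4M and 50, against 2.71%, 16.8%, 36.3% and 27.6% in control 10, 20, 3M and 4M. CTSV took 2.81%, 7.54%, 7.08% and 13.2% in the same FLI samples, against 47.3%, 19.1%, 8.48% and 7.97% in the controls. CTSV led the family in control 10, CTSB led it in FLI 50 and control 20, and CTSL in the other 5 samples.

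The ratio of CTSL to CTSV per kilobase was 15.1, 4.68, 4.48 and 1.802 in FLI 20, 3M, 4M and 50, against 0.0573, 0.879, 4.29 and 3.46 in control 10, 20, 3M and 4M. CTSV exceeded CTSL only in control 10 and control 20. The remaining controls, 3M and 4M, had ratios within the FLI range.

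**Figure D3:**
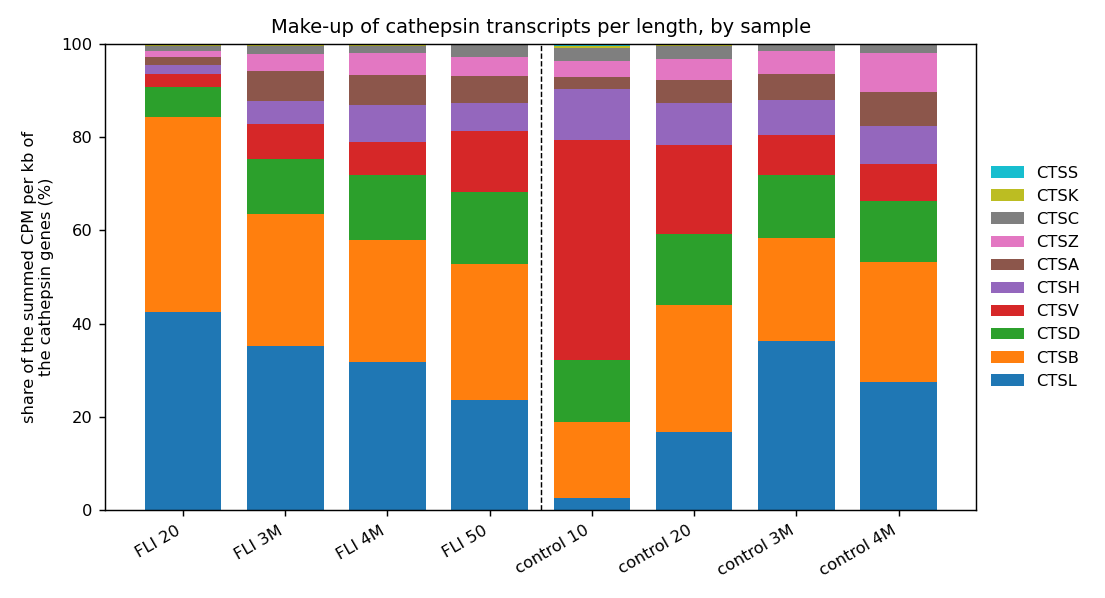
Share of each cathepsin gene in the family's summed CPM per kilobase (percent, stacked bars, 1 bar per sample, FLI samples left of control samples). CTSL takes 42.6% in FLI 20 and 2.71% in control 10, where CTSV takes 47.3%.

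The libraries whose title ends in 0 and those ending in M (3M and 4M) stood apart for many genes, and the labels do not say what the character marks. Among the controls, 10 and 20 were separated from 3M and 4M for 7 of 9 tested members, where 57.3% of all tested genes were. CTSA, CTSB, CTSD, CTSL and CTSZ were lower in control 10 and 20, and CTSC and CTSV were higher there. Among the FLI samples, 20 and 50 were separated from 3M and 4M for 2 of 9 members, CTSA and CTSC, where 41.7% of all tested genes were. Both differed in the same direction as in the controls, which held for 23.2% of all tested genes.

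Within the samples ending in 0, CTSL differed by 3.17 on the log2 scale between FLI and control, and within those ending in M by -0.04. For CTSB the differences were 1.68 within 0 and 0.07 within M, for CTSV -1.35 and -0.29, and for CTSA 0.77 and -0.08. CTSD differed by 0.43 within 0 and -0.18 within M, CTSK by 0.45 and 0.31, and CTSC by 0.15 and 0.05. CTSH differed by -0.58 within 0 and -0.45 within M. The differences of CTSL, CTSB and CTSV were thus larger within 0 than within M, with the sign of CTSV and CTSB kept. CTSH had the same sign and a similar size in both. Each kind of title had only 2 samples per group. Those ending in 0 include FLI 20 and control 10, the highest and lowest samples for CTSL and CTSB. Without these 2 libraries the log2 differences over both kinds of title were 0.24 for CTSL, 0.19 for CTSB and -0.27 for CTSV. Whether the larger differences within 0 belong to the title character or to these 2 libraries was not tested. CTSZ differed by 0.22 within 0 and -0.76 within M, so its sign turned. The change of the FLI difference between the 2 kinds of title was tested as an interaction in limma: it was -3.21 for CTSL (unadjusted p = 0.0463, adjusted p = 0.818), -0.98 for CTSZ (unadjusted p = 0.0117, adjusted p = 0.749) and -0.84 for CTSA (unadjusted p = 0.0347, adjusted p = 0.798). For CTSB it was -1.61 (limma adjusted p = 0.846) and for CTSV 1.06 (limma adjusted p = 0.856), both with an unadjusted p above 0.05, and for the other 4 members the adjusted p was 0.846 to 0.986. No gene passed the adjusted threshold for this interaction in limma, and 6.08% of all tested genes had an unadjusted p under 0.05. The interaction was fitted with FLI 20 and control 10 included, and its dependence on these 2 libraries was not tested.

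Marker genes of the conceptus tissues also differed between these libraries. In bulk RNA, fewer cells of a type and less RNA per cell cannot be told apart. Each marker was set against its own mean over the 8 samples on the log2 scale. The median deviation of the 19 trophoblast markers was 0.79, 0.50, -0.07 and 0.27 in FLI 20, 3M, 4M and 50, against -2.06, 0.19, -0.01 and -0.05 in control 10, 20, 3M and 4M. For 12 of the 19 genes control 10 was the lowest sample. Individual markers did not all follow the median. TKDP1, a trophoblast Kunitz protein and the most abundant marker, had 38724, 26093, 6168 and 30369 CPM in FLI 20, 3M, 4M and 50, against 3446, 17112, 4624 and 6360 CPM in control 10, 20, 3M and 4M. PAG11, a pregnancy-associated glycoprotein and the next in level, had 2673, 22834, 6964 and 20360 CPM in FLI 20, 3M, 4M and 50, against 2085, 12847, 6314 and 7422 CPM in control 10, 20, 3M and 4M. Both were lowest in control 10, but in FLI 20 TKDP1 was the highest and PAG11 the lowest of the FLI samples. Markers chosen after their values were seen also pointed both ways. The transcription factor GATA3 had 81.7 to 221 CPM in FLI, 11.7 CPM in control 10 and 61.2 to 98.6 CPM in the other controls. In contrast TEAD4, another transcription factor, and the keratin KRT19 were highest in control 10, with 84.8 and 5495 CPM there.

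The 17 markers of hypoblast and yolk sac endoderm, the inner layer that also takes up protein, had median deviations of 0.13, -0.45, -0.36 and 0.15 in FLI 20, 3M, 4M and 50, against 1.40, 0.78, -1.14 and -0.55 in control 10, 20, 3M and 4M. All 17 were above their own mean in control 10. Their summed level was 6818 to 17770 CPM in FLI and 4148 to 39918 CPM in control, and AFP and CUBN were at 0 in at least 1 library. APOA1, an apolipoprotein of that layer, had 2181, 1109, 684 and 2108 CPM in FLI 20, 3M, 4M and 50, against 6183, 2702, 544 and 437 CPM in control 10, 20, 3M and 4M. Control 10, which had the highest CTSV and the lowest CTSL, thus had the highest endoderm and the lowest trophoblast median. FLI 20, with the highest CTSL, had the highest trophoblast median. Other libraries did not keep this order. Control 3M, next highest in CTSL (663 CPM), had a trophoblast median of -0.01, and control 20, next lowest (162 CPM), had 0.19. The part of these tissues in the CTSL and CTSV differences was not tested.

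**Figure D4:**
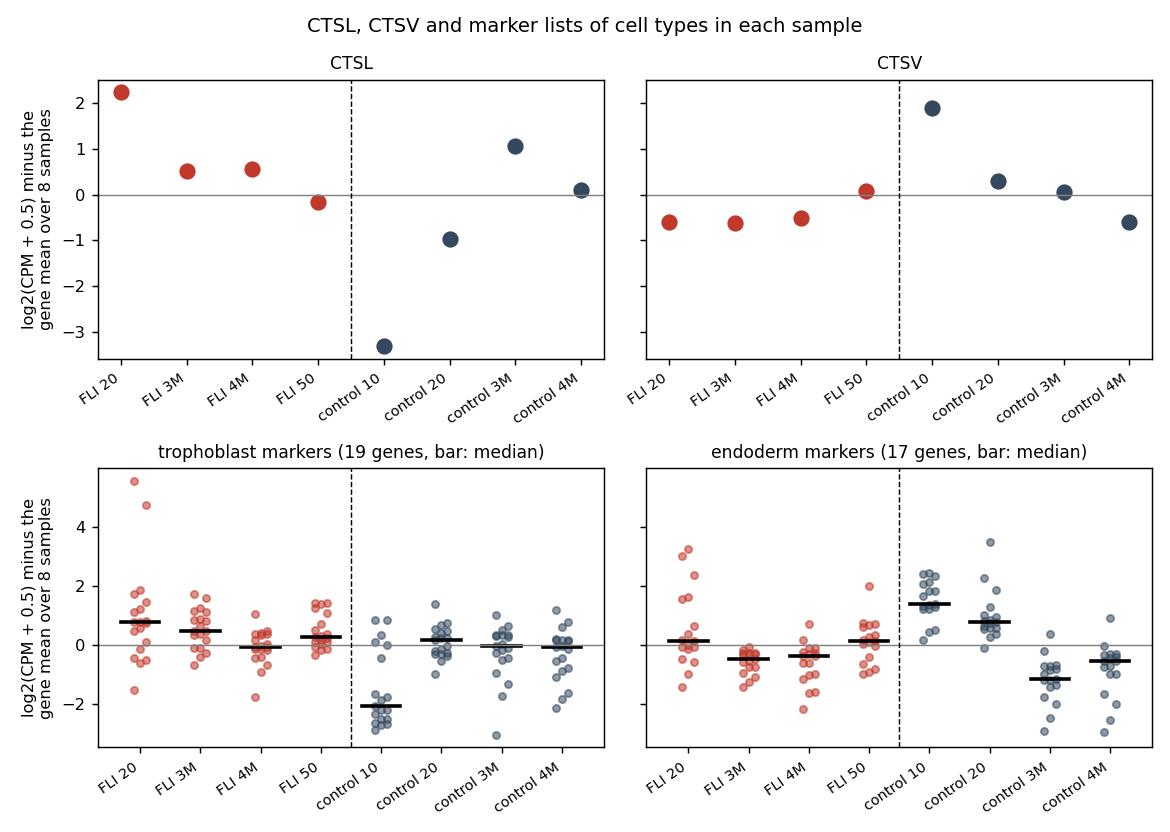
Log2(CPM + 0.5) minus the gene's mean over the 8 samples, for CTSL, CTSV, 19 trophoblast markers and 17 markers of hypoblast and yolk sac endoderm, FLI samples in red left of control samples in blue, with 1 point per gene and a black bar at the median of a list. Control 10 has the lowest CTSL, the highest CTSV, the lowest trophoblast median (-2.06) and the highest endoderm median (1.40).

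A blood marker and part of the leukocyte markers were highest in FLI 20. ALAS2, the first enzyme of heme synthesis in red cell precursors, had 66.6 CPM in FLI 20, 0.553 to 2.75 CPM in the other FLI samples and 1.51 to 4.06 CPM in control. It was the 1 gene in the table of the 10 listed blood markers. The 7 leukocyte markers in the table, of 14 listed, summed to 51.4, 12.8, 14.6 and 9.40 CPM in FLI 20, 3M, 4M and 50, against 7.43 to 17.8 CPM in control. Most of the FLI 20 sum was AIF1, at 33.7 CPM, and CD14, at 11.3 CPM, and FCER1G (2.42 CPM) and CD68 (3.23 CPM, against 2.90 CPM in control 10) were also highest there. The other 3 were low in FLI 20: the macrophage receptor MRC1 had its lowest value of all samples, 0.358 CPM, against 0.524 to 4.82 CPM in control, and LAPTM5 (0.280 CPM) and CORO1A (0.087 CPM) were lower only in FLI 50. None of the 7 leukocyte markers in the table was at 0 in any library, and the listed markers missing from it could not be judged. The part of such cells in the cathepsin levels of FLI 20 was not tested.

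The lists for 3 further tissues had smaller sums than the trophoblast and endoderm lists. Mesoderm and mesenchyme (14 of 14 markers in the table) summed to 29.4 to 56.7 CPM in FLI and 16.9 to 217 CPM in control, with the highest sum in control 10, and TBXT, EOMES and COL3A1 were at 0 in some library. Endometrium markers (5 of 11 in the table) summed to 2.97 to 6.77 CPM in FLI and 3.06 to 14.4 CPM in control. Embryonic disc markers (9 of 13) summed to 234 to 403 CPM in FLI and 254 to 620.5 CPM in control, again highest in control 10. PRDM14 and NODAL were at 0 in FLI 20 and FLI 50. POU5F1 (1.42 and 1.01 CPM) and NANOG (0.0175 and 0.0592 CPM) also had their lowest values in these libraries. LIN28B, DNMT3B, TDGF1 and DPPA4 were lowest in other samples.

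The partners of the cathepsins were described from 8 further gene lists, and limma called 0 genes in any of them. At an unadjusted p under 0.05 it found CST3 and ACP2, higher in FLI, and SORL1 and MITF, lower in FLI, which is 4 of 106 tested genes or 3.77%, near the 2.84% of all tested genes. The counts of higher and lower genes given below go by the mean log2 level, which was higher in FLI for 50.8% of all tested genes. The genes of a list share their samples. Among 12 tested inhibitors the mean log2 level was higher in FLI for 8 and lower for 4, with a median log2 difference of 0.23. CST3, the secreted inhibitor cystatin C, had 297, 180.2, 118 and 154 CPM in FLI 20, 3M, 4M and 50, against 49.8, 126, 146 and 87.1 CPM in control 10, 20, 3M and 4M. In 3 FLI samples it lay above all controls, with a log2 difference of 0.90 (SE 0.38, limma adjusted p = 0.97). CSTB, a cystatin of the cytosol and the most abundant inhibitor per kilobase, averaged 221 ± 40.8 CPM in FLI and 198 ± 71.9 CPM in control (SD, n = 4 each). A further gene entry named CSTB, also among the 12 tested, averaged 62.5 ± 16.4 CPM in FLI and 72.6 ± 57.0 CPM in control. Its log2 difference was 0.19, so it counts among the 8 despite the lower mean in CPM. A2M, the broad protease trap alpha-2-macroglobulin, was low, with 0, 1.11, 2.30 and 0.0197 CPM in FLI 20, 3M, 4M and 50, against 5.48, 7.03, 0.701 and 0.883 CPM in control 10, 20, 3M and 4M. Its groups overlapped, with FLI 20 and FLI 50 below all controls.

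Of 30 tested genes for other lysosomal hydrolases and membrane proteins, 24 averaged higher in FLI and 6 lower, with a median log2 difference of 0.24 against 0.0045 over all genes. ACP2, a lysosomal acid phosphatase, had 26.0, 24.6, 21.8 and 22.7 CPM in FLI 20, 3M, 4M and 50, against 15.3, 21.7, 13.9 and 16.8 CPM in control 10, 20, 3M and 4M. It was the 1 gene of the 106 (0.943%) whose groups did not overlap, against 1.45% of all tested genes, though FLI 4M (21.78 CPM) and control 20 (21.73 CPM) nearly met. Its log2 difference was 0.49 (SE 0.17, limma adjusted p = 0.97). NAGLU, which degrades heparan sulfate, averaged 58.7 ± 10.4 CPM in FLI and 41.6 ± 11.2 CPM in control (SD, n = 4 each). CD63, a tetraspanin of the lysosomal membrane, averaged 405 ± 178 CPM in FLI and 285 ± 48.6 CPM in control, with the highest value, 660.2 CPM, in FLI 20.

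The vacuolar proton pump, which acidifies the lysosome, was tested for 15 subunits, of which 13 averaged higher in FLI and 2 lower, with a median of 0.20. Control 10 was the lowest sample for most of these subunits, among them ATP6V0B (94.5 CPM), ATP6V1A (123 CPM) and ATP6V1B2 (107 CPM). The subunits share their libraries, so the count is not one of independent results. ATP6V0E1 averaged 147 ± 15.0 CPM in FLI and 110.0 ± 34.8 CPM in control, and ATP6V0D1 averaged 193 ± 31.1 CPM in FLI and 152 ± 35.05 CPM in control (SD, n = 4 each). For both genes the groups overlapped, and control 10 had the lowest value. Mannose 6-phosphate tagging and sorting was higher for 14 and lower for 6 of 20 genes, with a median of 0.08. SORL1, a sorting receptor, was low, with 0.253, 3.01, 7.95 and 2.25 CPM in FLI 20, 3M, 4M and 50, against 13.9, 10.6, 3.71 and 7.54 CPM in control 10, 20, 3M and 4M. Its log2 difference was -1.62 (SE 0.70, limma adjusted p = 0.97), with FLI 4M inside the control range. GGA1, a coat adaptor of this route, averaged 48.1 ± 3.92 CPM in FLI and 41.8 ± 4.72 CPM in control, and VPS29 of the retromer 79.4 ± 6.29 CPM in FLI and 77.2 ± 9.55 CPM in control (SD, n = 4 each).

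The list of activation and protective partners, which also holds enzymes that CTSA stabilises, was evenly divided, 4 higher and 4 lower of 8 tested, with a median of 0.03. GLB1, the beta-galactosidase held by CTSA, averaged 41.4 ± 12.4 CPM in FLI and 31.1 ± 3.83 CPM in control (SD, n = 4 each). SCPEP1, a serine carboxypeptidase related to CTSA, had 289.9, 46.0, 38.8 and 46.2 CPM in FLI 20, 3M, 4M and 50, against 20.8, 30.7, 60.4 and 40.9 CPM in control 10, 20, 3M and 4M. FLI 20 was again the sample apart. PSAP, the precursor of the saposins, had 1089.8, 923, 725 and 1465 CPM in FLI 20, 3M, 4M and 50, against 2761, 1371, 769 and 622 CPM in control 10, 20, 3M and 4M, with control 10 highest as for CTSV.

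Regulators of lysosomal genes were lower for 6 and higher for 3 of 9 tested genes, with a median of -0.08. MITF, a transcription factor of the same family as TFEB, had 0.647, 0.550, 1.29 and 0.740 CPM in FLI 20, 3M, 4M and 50, against 2.89, 1.57, 1.08 and 1.56 CPM in control 10, 20, 3M and 4M. FLI 4M lay inside the control range, and the log2 difference was -0.77 (SE 0.30, limma adjusted p = 0.97). RRAGD, a GTPase that signals nutrient state at the lysosome, averaged 3.45 ± 0.978 CPM in FLI and 6.13 ± 3.43 CPM in control, and LAMTOR1, part of its anchor, 76.7 ± 6.48 CPM in FLI and 70.0 ± 11.9 CPM in control (SD, n = 4 each).

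Uptake receptors and their helpers were higher for 8 and lower for 2 of 10 tested genes, with a median of 0.17. LRP2, the large endocytic receptor megalin, had 2227, 2664, 4703 and 5265 CPM in FLI 20, 3M, 4M and 50, against 1276, 3154, 3744 and 5783 CPM in control 10, 20, 3M and 4M. Its samples spread widely in both groups. LRPAP1, the chaperone of such receptors, averaged 320.2 ± 42.9 CPM in FLI and 246 ± 97.6 CPM in control, and EEA1, a tether of early endosomes, 37.3 ± 4.65 CPM in FLI and 43.8 ± 7.45 CPM in control (SD, n = 4 each). Of the other cathepsins, 3 of 8 listed symbols were in the table and 2 were tested, with lower means in FLI for both. CTSO averaged 2.03 ± 0.663 CPM in FLI and 3.13 ± 2.52 CPM in control, and CTSF 7.14 ± 0.9993 CPM in FLI and 7.24 ± 1.30 CPM in control (SD, n = 4 each).

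**Figure D5:**
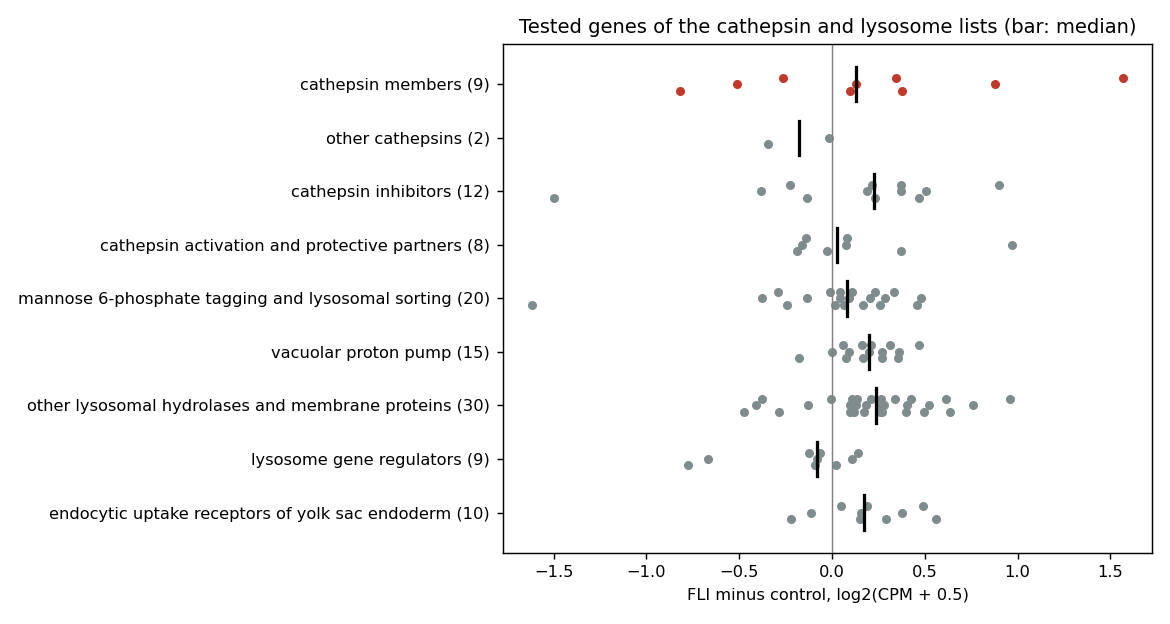
Difference FLI minus control on log2(CPM + 0.5) for each tested gene of the cathepsin and lysosome lists, 1 point per gene and a black bar at the list's median, with the number of tested genes in parentheses. Most points of the vacuolar proton pump (13 of 15) and of the other hydrolases (24 of 30) lie right of 0, where 50.8% of all tested genes do. The cathepsin members have the widest spread on the right side (CTSL at 1.57). None of these genes was called by limma at the adjusted threshold.

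The gene with the profile most like each member was taken as the one with the smallest root mean square distance between log2 levels over the 8 samples, each gene centred on its mean, among 10902 genes. It was PLA2R1, a phospholipase A2 receptor, for CTSL, at a distance of 0.36, where the spread of CTSL itself was 1.52. It was NEFH for CTSV (0.14 against a spread of 0.79), SEMA4B for CTSB (0.14 against 0.80), LENG8 for CTSK (0.14 against 0.53) and CLTA, a clathrin light chain, for CTSA (0.11 against 0.54). The nearest profiles were LRRC8D for CTSD (0.09), RHBDD1 for CTSC (0.10), RPP38 for CTSZ (0.12) and DENND2C for CTSH (0.17). Members were not each other's nearest genes. CTSZ was the nearest member to CTSA at 0.37 and at rank 838 in its order, and CTSB was the nearest member to CTSL at 0.95 and at rank 199.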

How the data were processed

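Per the submitters' processing notes, FastQC, HISAT2, featureCounts and edgeR were used with build ARS-UCD1.2. Tool versions, the strand setting and the handling of multi-mapping reads are not stated in those notes or the labels. The deposited signal, made by the authors, is TMM-scaled CPM: 100% of the values were whole multiples of 1 read within 0.001. The fewest reads of a gene over all samples were 112, so low genes were left out before deposit. Per the file headers, the authors' deposited table also holds log2 fold changes, likelihood ratio scores, p-values and adjusted p-values.

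limma 3.58.1 (eBayes with trend, R 4.3.3) was fitted to log2(CPM + 0.5) over 11897 genes with at least 1 CPM in 4 samples, two-sided, treatment from the labels as the only term. Alternatives used edgeR 4.0.16 and DESeq2 1.42.0 on the recovered reads. The fit was tested on simulated data. Since a normalized unit was deposited, limma was the main test. The equal title numbers 20, 3M and 4M correlated at 0.133, 0.351 and 0.359 in their deviations from the group means. No label says what they mark, and such pairs also share the last character. Members and lists were chosen with earlier results of these data known. Named were all members, and of each pathway list the 2 tested genes of smallest p and the most abundant per kilobase. Of each cell type list the 2 most abundant were to be named; those not in the text are in the closing section. The gene and member nearest to each member were also found. Symbols were checked in RefSeq for ARS-UCD2.0, where 10 of 10 members were found. Errors are SD over samples. Precision from counts covers counting error only.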

Additional observations from a re-analysis of the deposited data

Results flagged for a closer look

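In 66 groups of 4 samples (33 genes and sums), 11 had a highest or lowest sample whose gap to its nearest neighbour was a larger part of the group's range than Dixon's 95% critical value, and chance gives such a gap in about 5% of groups of independent, normally distributed values. The gaps were taken on CPM, which is skewed, and the genes share their samples, so this rate need not hold here. On log2(CPM + 0.5), 7 of the 11 gaps passed the same value, and those of CTSL, CTSD, RRAGD and the sum of the 10 cathepsins did not. FLI 20 stood above the other FLI samples for CTSB (1634 CPM), CTSL (1505 CPM), CTSS (1.81 CPM), the sum of the 10 cathepsins (3775 CPM) and SCPEP1 (289.9 CPM). FLI 4M did so for CTSH (93.5 CPM) and CTSZ (79.6 CPM), and FLI 50 for CTSV (198 CPM) and EEA1 (44.3 CPM). Among the controls, control 3M stood apart for CTSD (277 CPM) and control 10 for RRAGD (11.2 CPM). The FLI difference of CTSZ changed by -0.98 on the log2 scale between titles ending in M and in 0, by an interaction term in limma (unadjusted p = 0.0117, adjusted p = 0.749).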

How the results depend on the processing

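Each of the 9 tested members was refitted under 22 alternatives and CTSS under 4. Of these 202 log2 differences, 194 had the sign of the reported value, and no member was called in any of them; the smallest adjusted p was 0.664, for CTSH in the edgeR likelihood ratio test with robust weights. The sign turned within titles ending in M for CTSA (-0.075), CTSD (-0.18) and CTSL (-0.040), within titles ending in 0 for CTSZ (0.22), with library size alone for CTSC (-0.0045, where the median of all genes moved alike, to -0.09), and without control 10 and FLI 20 for CTSD (-0.0072). Leaving out 1 sample at a time gave -0.042 to 0.22 for CTSC. The cause was not tested. Over all genes limma called 0, while the likelihood ratio test called 6 without weights and 33 with robust weights, and DESeq2 called 14. With the replicate block on the 6 samples of equal number, limma called 0 genes, and CTSL differed by 1.04, CTSV by -0.49 and CTSH by -0.40, so the block changed no call. The alternative without control 10 and FLI 20, the unweighted likelihood ratio test and the last title character as a term were added after the data were seen. With 4 samples per group, CTSL differences between -0.49 and 3.62 on the log2 scale lay within the 95% confidence interval.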

Other observations

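The most abundant markers of the other lists, in CPM, were as follows. FN1, fibronectin, had 5347 to 15008 in FLI and 3408 to 31976 in control, with the highest value in control 10. DNMT3B had 133 to 174 in FLI and 138 to 228 in control, and TDGF1 48.3 to 110 in FLI and 40.8 to 181 in control. BMP4 had 15.4 to 24.6 in FLI and 3.98 to 75.5 in control, and COL1A1 4.61 to 23.9 in FLI and 4.93 to 102 in control. MSX1 had 1.76 to 4.54 in FLI and 1.28 to 11.04 in control, and FOXL2 0.563 to 3.16 in FLI and 0.182 to 1.16 in control.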
